A study of Mus musculus with 21 samples.

Results

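The 35 genes described here encode lysosomal hydrolases, lysosomal membrane proteins, subunits of the lysosomal proton pump and the regulator Tfeb. They were taken as a fixed list of symbols, chosen with earlier results of these data known. Call counts of the list therefore describe it and are no independent test of it. All 35 were found among the 23238 symbols of the count files and among the 14727 genes with enough counts to be tested. The levels come from 3′ end RNA sequencing of lung tissue from 21 C57BL/6 mice, 1 library per animal and 3 animals in each of 7 groups. Every animal received 50 µL into the trachea once a day for 14 days and was killed on day 15, and lavage fluid had been drawn before the tissue was taken. Lungs given PG (propylene glycol, used as a carrier in vaping liquids) at 826 or 1100 were set against lungs given saline. Lungs given vitamin E acetate (VEA), an oily additive, at 3.12, 6.25 or 12.5 were set against lungs given 10% ethanol, the control that the labels name for VEA. What VEA itself was dissolved in is not given in the sources used here, and the unit of the doses is mg/kg in the labels and mg/mL in the series text, so the doses appear here as numbers alone. The labels name no gene alteration in any group, and the age of the animals is not given in the sources used here.

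Lysosomes are acid compartments in which cathepsins cut proteins, glycosidases trim sugar chains, and lipases and ceramidase, helped by saposins, break down lipids. A proton pump keeps the lumen acid, and heavily glycosylated membrane proteins line the inner face of the organelle. In the lung these genes are used by macrophages, which take up inhaled material and surfactant, and by type II epithelial cells, whose surfactant-storing lamellar bodies are related to lysosomes. TFEB binds E-box sequences near the start of many lysosomal genes and raises their transcription.

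The sequence that TFEB and related factors bind was looked for in the RefSeq promoter windows of GRCm38.p6, which run from 250 bases before a gene's start to 50 bases after it. A window was held for 31 of the 35 genes, and none for Atp6v1b2, Ctsh, Ctsb and Asah1. The E-box core CACGTG, which reads the same on both strands, was found in 12 of the 31 genes (38.7%), in 12 of 53 other lysosomal genes with a window (22.6%) and in 8.09% of the 27025 genes of the table. The longer palindrome TCACGTGA, which contains the core, was found in 6 of the 31 (19.4%) and in 1.12% of all genes, and GTCACGTGAC in 0 of the 31 and in 0.37% of all genes. The windows of 4 genes are shown as examples, picked with the differences between groups known. Lamp1 and Ctsd carry the core, at 4 and 2 places, and Cd68 and Ctsk carry none. Ctsd, Cd68 and Ctsk all have some of the largest differences of the list. Capitals mark the core, and each line runs 5′ to 3′ on the gene's own strand. The windows lie at chr8:13158911-13159210 on the plus strand (Lamp1), chr7:142387778-142388077 on the minus strand (Ctsd), chr11:69666121-69666420 on the minus strand (Cd68) and chr3:95498960-95499259 on the plus strand (Ctsk).
Lamp1: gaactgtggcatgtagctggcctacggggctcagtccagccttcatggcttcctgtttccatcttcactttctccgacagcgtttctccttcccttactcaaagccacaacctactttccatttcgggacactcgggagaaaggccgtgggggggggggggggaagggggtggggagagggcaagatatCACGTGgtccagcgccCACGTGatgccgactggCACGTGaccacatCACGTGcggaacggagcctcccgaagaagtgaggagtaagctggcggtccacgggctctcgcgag
Ctsd: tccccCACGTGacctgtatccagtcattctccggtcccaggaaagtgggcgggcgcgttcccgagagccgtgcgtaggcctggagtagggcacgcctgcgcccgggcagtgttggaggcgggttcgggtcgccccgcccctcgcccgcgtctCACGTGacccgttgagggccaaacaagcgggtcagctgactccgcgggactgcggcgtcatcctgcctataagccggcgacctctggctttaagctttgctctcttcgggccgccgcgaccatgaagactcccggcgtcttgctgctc
Cd68: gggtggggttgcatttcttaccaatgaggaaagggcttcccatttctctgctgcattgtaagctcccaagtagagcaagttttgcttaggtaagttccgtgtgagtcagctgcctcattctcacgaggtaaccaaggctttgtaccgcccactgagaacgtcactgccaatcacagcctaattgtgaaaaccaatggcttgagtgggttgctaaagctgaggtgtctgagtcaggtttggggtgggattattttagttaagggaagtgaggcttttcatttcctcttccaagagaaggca
Ctsk: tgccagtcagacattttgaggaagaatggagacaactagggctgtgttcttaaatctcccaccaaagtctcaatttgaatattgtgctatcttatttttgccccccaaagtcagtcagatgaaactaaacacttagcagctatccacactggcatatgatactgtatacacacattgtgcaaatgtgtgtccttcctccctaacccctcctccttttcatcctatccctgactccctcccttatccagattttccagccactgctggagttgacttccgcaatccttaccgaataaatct

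Each library held between 8778028 and 11783151 counts over 14843 to 15992 detected symbols. Between 14.6% and 26.1% of a library was ribosomal Rn45s, and between 4.06% and 13.8% was haemoglobin. The club cell protein Scgb1a1 had 20729 to 62601 CPM and the type I cell receptor Ager 2361 to 3007 CPM, so markers of lung tissue were present in every library; Scgb1a1 differed between the groups, as given with the cell type markers. Levels are CPM, the count scaled by the TMM-adjusted library size, and changes are log2 fold changes ± SE from edgeR's quasi-likelihood test, called where the Benjamini-Hochberg adjusted p over all 14727 genes was below 0.05. In whole lung, more cells of a type and more RNA per cell cannot be told apart. The labels do not say whether the 3 animals of a group were housed or treated apart.

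After PG 1100, 16 of the 35 genes rose against saline and none fell, where 4.09% of all genes tested rose and 3.23% fell. After PG 826 no member passed the test, where 0.0951% of all genes rose and 0.0407% fell. After VEA 12.5, 21 of the 35 rose against ethanol and none fell, where 5.48% of all genes rose and 4.23% fell. At VEA 6.25 the count was 9 (all genes: 3.51% rose and 2.25% fell), and at VEA 3.12 it was 13 (all genes: 3.42% rose and 2.09% fell), again with none lower. Fitting only VEA 6.25 and ethanol gave 12 higher and 1 lower, Tpp1. Without ethanol animal 14 the VEA 12.5 count was 12, without VEA animal 68 it was 13, and without VEA animal 64 the VEA 6.25 count was 5. The median log2 fold change of the 35 genes was 0.48 for PG 1100, 0.19 for PG 826, 0.68 for VEA 12.5, 0.41 for VEA 6.25 and 0.51 for VEA 3.12, and that of all genes tested lay between -0.01 and 0.01 in each of these comparisons. The 3 VEA comparisons share the ethanol animals and the 2 PG comparisons share the saline animals.

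Summed over the 35 genes, PG 1100 lungs had 8082, 12399 and 7276 CPM and PG 826 lungs 5797, 5680 and 5283 CPM, against 4932, 5152 and 4838 CPM in saline lungs. In the dose series of VEA the sums were 4898, 5089 and 4996 CPM in ethanol lungs, 7757, 6997 and 8215 CPM at 3.12, 6948, 7194 and 6478 CPM at 6.25, and 8237, 8526 and 8726 CPM at 12.5. Every treated lung lay above every lung of its own vehicle, and PG 826 lay closest to it. These sums weigh abundant genes most: the 3 highest genes of a lung made up 27.9% to 41.1% of its sum, the most in PG 1100 animal 28. PG 1100 animal 28 stood apart from the other PG 1100 animals: it had the highest level of its group in 27 of the 35 genes. The median coefficient of variation over the 35 genes was 26.0% in the PG 1100 group, the largest of the 7 groups, and 6.37% in the VEA 12.5 group, the smallest. Each SE given here uses a spread estimated over all 7 groups. It therefore does not show the wide spread of the PG 1100 animals or the narrow spread of the VEA 12.5 animals.

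**Figure D1:**
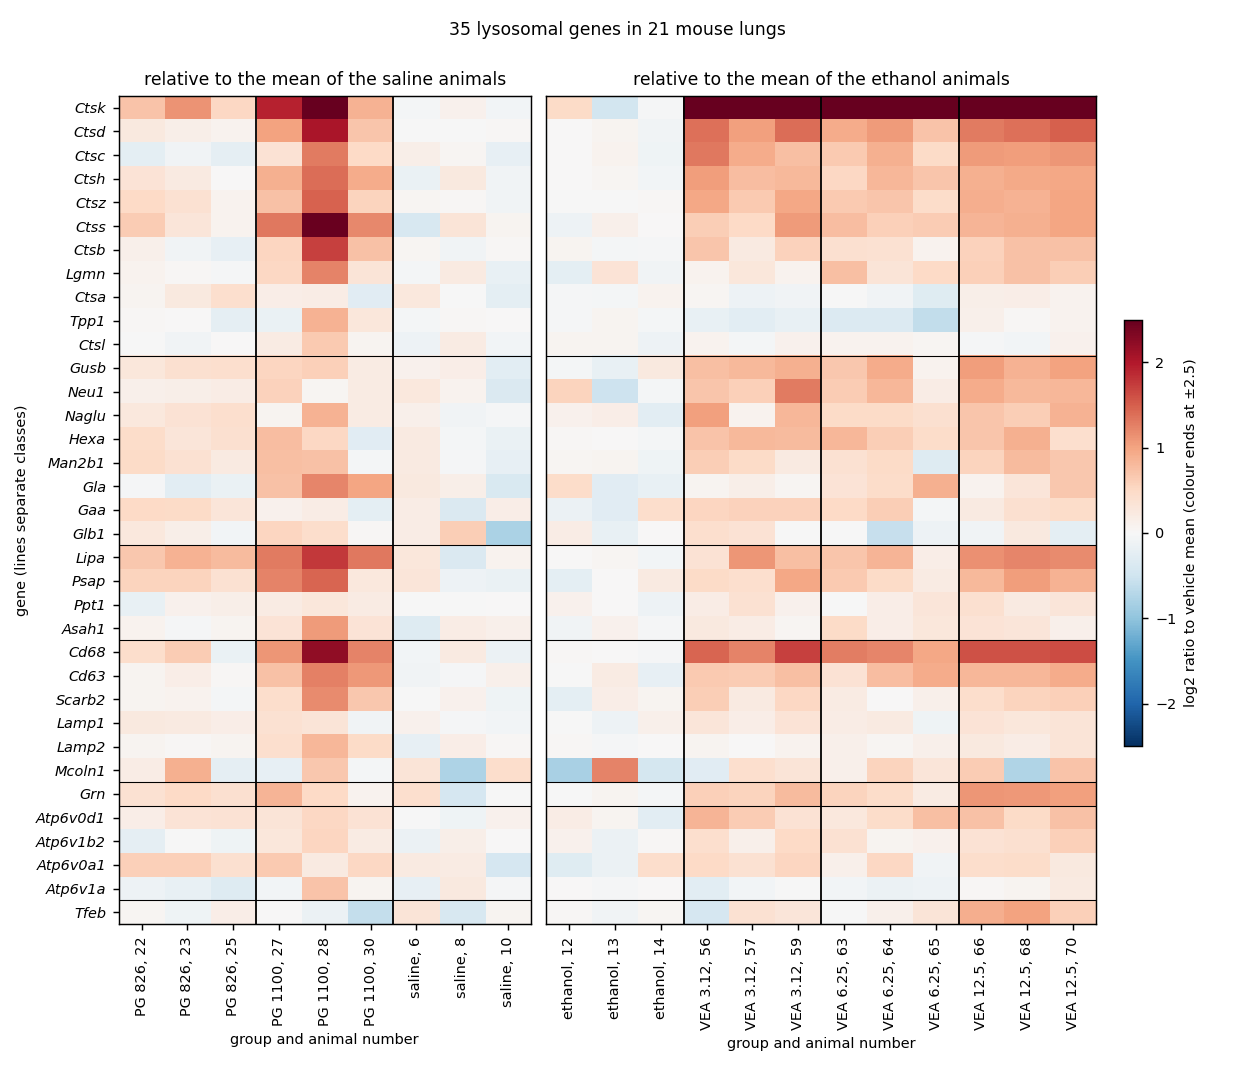
Colour map of the 35 genes (rows, grouped by class) in the 21 lungs (columns, by group and animal number), as log2 of CPM plus 0.5 minus the mean of the vehicle animals, PG at left against saline and VEA at right against ethanol. Red is above the vehicle mean and blue below it, and the PG 1100 animal 28 column is the reddest among the PG lungs, while Ctsk is at the dark end in all VEA columns.

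Of the 11 proteases, 8 rose after PG 1100 and 8 after VEA 12.5, the same genes in both, and 5 rose at each of VEA 6.25 and VEA 3.12. Their median log2 fold change was 0.98 for PG 1100, 0.91 for VEA 12.5, 0.61 for VEA 6.25 and 0.75 for VEA 3.12. Ctsk had the largest estimate of the 35 genes in each of the 5 comparisons with a vehicle. It encodes cathepsin K, a collagen-cutting cysteine protease best known from osteoclasts, and lies on chromosome 3, 95499256 to 95509362, in GRCm38. In ethanol lungs it had 22.7, 11.7 and 15.9 CPM, at VEA 3.12 it had 172, 173 and 213 CPM, at VEA 6.25 163, 184 and 149.6 CPM, and at VEA 12.5 187, 236 and 238 CPM. All 9 VEA lungs were above all ethanol lungs by a wide gap, and the doses were close to each other. The log2 fold changes were 3.48 ± 0.39 at VEA 3.12, 3.31 ± 0.39 at 6.25 and 3.72 ± 0.39 at 12.5, which is 11.1-fold, 9.89-fold and 13.1-fold (edgeR adjusted p = 6.60e-05, 9.85e-05 and 1.61e-05).

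Ctsk was also higher in PG lungs. It had 83.3, 159 and 39.97 CPM after PG 1100 and 36.0, 47.6 and 31.3 CPM after PG 826, against 21.02, 23.5 and 20.7 CPM after saline. The PG 1100 animals were spread widely, the lowest being below the highest PG 826 animal, and both PG groups lay above saline. The change was 2.11 ± 0.37 for PG 1100, or 4.33-fold (edgeR adjusted p = 0.00207), and 1.51 without animal 28 (edgeR adjusted p = 5.47e-04). For PG 826 it was 0.82 ± 0.37, which did not pass (edgeR adjusted p = 0.509).

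Ctss encodes cathepsin S, a protease of antigen-presenting cells that trims the MHC class II invariant chain (chromosome 3, 95526786 to 95556403). It had 904.7, 1992 and 830.4 CPM in PG 1100 lungs, against 272, 453 and 379 CPM in saline lungs, and the groups did not overlap (1.76 ± 0.27, edgeR adjusted p = 3.47e-04). In the VEA series it had 321, 381 and 350.3 CPM in ethanol lungs, 537, 496 and 735 CPM at 3.12, 593, 525 and 545 CPM at 6.25 and 632, 651 and 693 CPM at 12.5. Each VEA group lay above the ethanol lungs, and Ctss passed the test at 12.5 (0.91 ± 0.26, edgeR adjusted p = 0.0349). That call ended on leaving out any 1 of the 6 animals compared, with adjusted p between 0.0707 and 0.114. Fitted with ethanol alone, Ctss passed at VEA 3.12 and 6.25 too (edgeR adjusted p = 6.14e-04 and 7.02e-04).

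Ctsd encodes the aspartic protease cathepsin D (chromosome 7, 142375911 to 142388038). PG 1100 lungs had 923, 1913 and 750.1 CPM and saline lungs 457, 458 and 471 CPM, a change of 1.37 ± 0.21 (edgeR adjusted p = 9.69e-05), and of 0.86 without animal 28 (8.99e-05). The VEA series ran 429, 447 and 402 CPM in ethanol lungs, 1105, 863 and 1122 CPM at 3.12, 814, 894 and 695 CPM at 6.25 and 1051, 1099 and 1194 CPM at 12.5. The treated groups did not overlap their vehicles in either series, and Ctsd rose at every VEA dose by 1.27 ± 0.21, 0.91 ± 0.21 and 1.39 ± 0.21, in rising order of dose. At 6.25 the edgeR adjusted p was 0.00910, and 0.0715 without the 3 libraries with the fewest genes detected.

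Ctsb encodes the cysteine protease cathepsin B (chromosome 14, 63122462 to 63145923). It had 247, 557 and 284 CPM after PG 1100 against 177, 160.2 and 174 CPM after saline, and it rose by 1.09 ± 0.19 (edgeR adjusted p = 3.05e-04), or by 0.64 without animal 28 (0.00536). In ethanol lungs it had 168, 156 and 158 CPM, at VEA 3.12 259.5, 188 and 241 CPM, at 6.25 211, 210.4 and 172 CPM, and at 12.5 241, 269 and 268 CPM. No lung given PG 1100 or VEA fell within the range of its vehicle. Ctsb passed at 12.5 (0.69 ± 0.19, edgeR adjusted p = 0.0173), and the call ended without ethanol animal 13 or 14 or without VEA 12.5 animal 68 or 70 (adjusted p 0.0608 to 0.0700).

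Ctsh encodes cathepsin H, an aminopeptidase that in type II cells helps process surfactant protein B (chromosome 9, 90054152 to 90076089). Its levels were 719, 1018 and 744 CPM after PG 1100 and 345, 463 and 367 CPM after saline, a change of 1.08 ± 0.14 (edgeR adjusted p = 2.21e-06). Ethanol lungs had 346, 356 and 329.9 CPM, VEA 3.12 lungs 713, 585 and 605 CPM, VEA 6.25 lungs 494, 615 and 557 CPM and VEA 12.5 lungs 634, 662 and 677 CPM. No lung given PG 1100 or VEA fell within the range of its vehicle, while the PG 826 lungs (392 to 496 CPM) overlapped saline. Ctsh rose by 0.88 ± 0.14, 0.69 ± 0.14 and 0.93 ± 0.14 with rising VEA dose.

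Ctsc, whose product cathepsin C activates the serine proteases of leukocyte granules, and Ctsz, a carboxypeptidase, rose after PG 1100 and at every VEA dose, by 0.61 to 1.07. Without PG 1100 animal 28 the Ctsc change for PG 1100 was 0.42 (edgeR adjusted p = 0.131), and that of Ctsz was 0.65 in place of 0.98 (0.00434). At VEA 6.25 the Ctsc call ended without ethanol animal 12 or 14 or VEA animal 64 (adjusted p up to 0.101), and the Ctsz call without ethanol animal 12 or 13 or VEA animal 64 (up to 0.0830). Lgmn, the asparagine-specific protease legumain, rose after PG 1100 (0.75 ± 0.19) and VEA 12.5 (0.63 ± 0.18). The PG 1100 call ended without animal 28 or saline animal 10 (edgeR adjusted p = 0.241 and 0.0560), and the VEA 12.5 call without ethanol animal 12 or 14 or VEA animal 68 or 70 (up to 0.138).

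The remaining proteases passed in no comparison with a vehicle when all libraries were fitted. Ctsa, which protects sialidase and beta-galactosidase, changed by 0.03 ± 0.14 for PG 1100 and 0.13 ± 0.14 for VEA 12.5. Ctsl, cathepsin L, changed by 0.32 ± 0.14 and 0.01 ± 0.14, and Tpp1, tripeptidyl peptidase 1, by 0.39 ± 0.16 and 0.08 ± 0.16. Tpp1 had the most negative estimate of the list against a vehicle, -0.43 ± 0.16 at VEA 6.25, where all 3 animals were below all ethanol animals and the edgeR adjusted p was 0.104. When only the VEA 6.25 and ethanol libraries were fitted, Tpp1 was called lower (-0.42, edgeR adjusted p = 0.0355). Without PG 1100 animal 27 it was called higher against saline (0.61, edgeR adjusted p = 0.00395). A p that misses the threshold does not show that a gene did not change: the 95% interval for Ctsa at PG 1100 ran between -0.27 and 0.32.

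**Figure D2:**
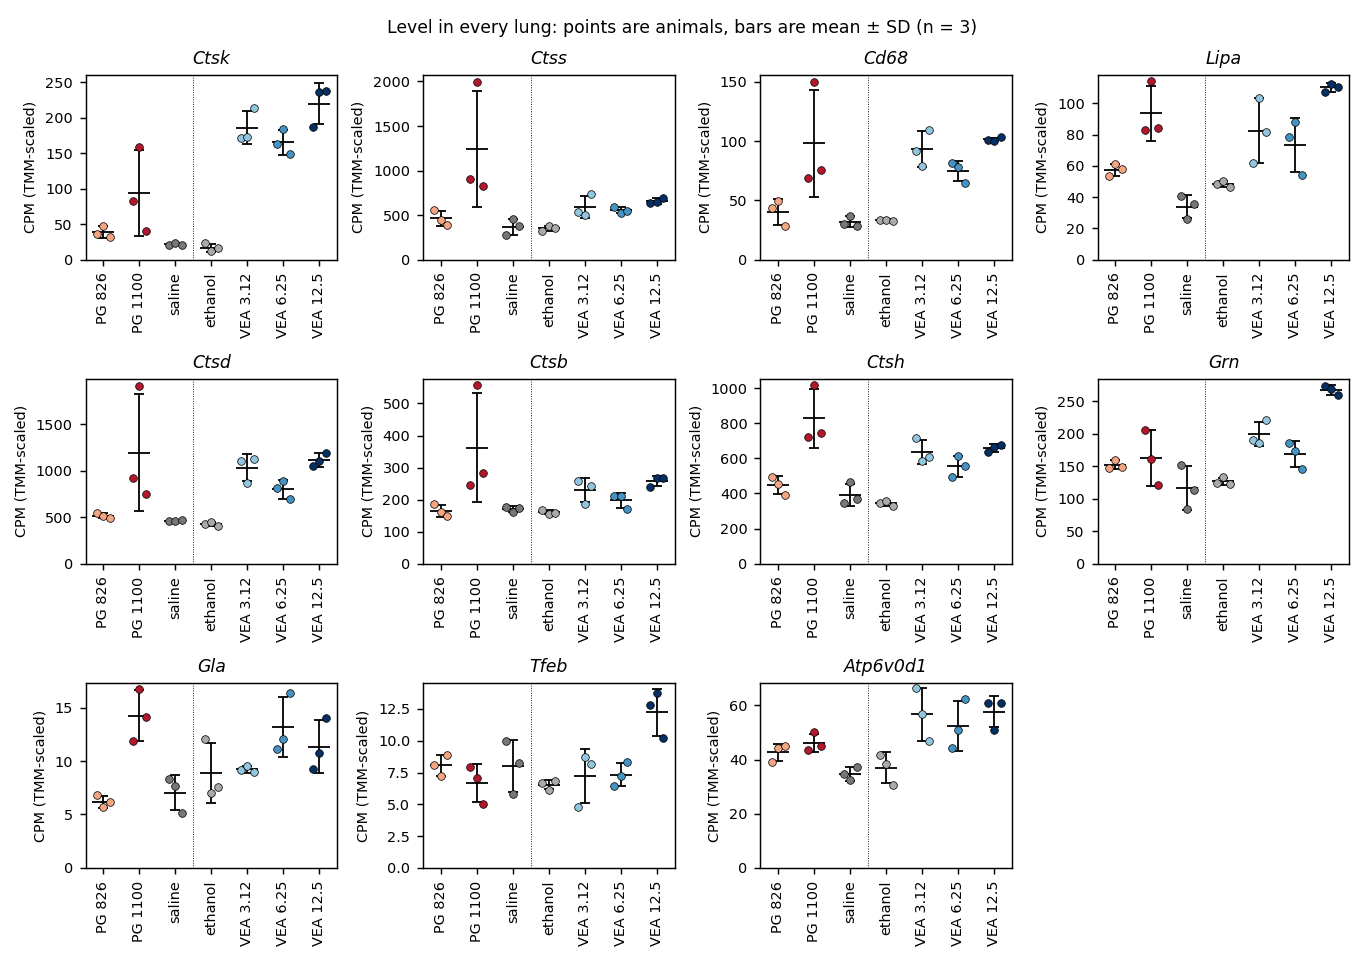
CPM of 11 genes in every lung, in 1 panel per gene with its own axis starting at 0, for the PG groups with saline (left of the dotted line) and for ethanol with the VEA doses (right of it). Points are animals and bars are mean ± SD of 3 animals; Ctsk, Cd68 and Ctsd lie well above ethanol at all 3 VEA doses, and the highest PG 1100 point of Ctsk, Ctss, Cd68, Ctsd and Ctsb is animal 28.

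Of the 8 glycosidases, 1 rose after PG 1100 and 4 after VEA 12.5, with 1 at VEA 6.25 and 3 at VEA 3.12. Gla, the alpha-galactosidase that is deficient in Fabry disease (chromosome X, 134588149 to 134601125), was the 1 that rose after PG 1100. It had 11.9, 16.7 and 14.1 CPM in PG 1100 lungs and 6.79, 5.65 and 6.14 CPM in PG 826 lungs, against 8.29, 7.67 and 5.16 CPM in saline lungs. The PG 1100 animals lay above all others of the PG series (1.02 ± 0.28, edgeR adjusted p = 0.0189), and the call ended without animal 28 (0.89, adjusted p = 0.123) or saline animal 10 (adjusted p = 0.116). In the VEA series Gla had 12.1, 7.02 and 7.55 CPM in ethanol lungs, 9.13, 9.57 and 8.93 CPM at 3.12, 11.1, 12.0 and 16.4 CPM at 6.25 and 9.26, 10.7 and 14.1 CPM at 12.5, so every dose overlapped its vehicle and none passed.

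Gusb, beta-glucuronidase, rose at VEA 12.5 (0.99 ± 0.20, edgeR adjusted p = 7.80e-04), with 36.6, 32.3 and 35.3 CPM against 16.7, 15.2 and 20.6 CPM in ethanol lungs. It also rose at VEA 3.12 (0.82 ± 0.20), a call that ended without ethanol animal 13 (edgeR adjusted p = 0.0669). Hexa, a subunit of beta-hexosaminidase, rose at all 3 VEA doses (0.78 ± 0.17, 0.65 ± 0.17 and 0.69 ± 0.17 with rising dose). The Hexa call at 6.25 ended on leaving out any of 5 animals, ethanol 12, 13 and 14 and VEA 63 and 64 (edgeR adjusted p up to 0.0879), and that at 12.5 without VEA animal 68 (0.0564). Neu1, a sialidase, rose at 12.5 (0.80 ± 0.22) and 3.12 (0.85 ± 0.23), and Man2b1, an alpha-mannosidase, at 12.5 (0.68 ± 0.19). Ethanol animal 14 was among those whose absence ended both Neu1 calls and the Man2b1 call (edgeR adjusted p between 0.0501 and 0.200 over the animals concerned). Those animals were, for Neu1 at 12.5, ethanol 13 and 14 and VEA 66, for Neu1 at 3.12, ethanol 13 and 14 and VEA 59, and for Man2b1, ethanol 12 and 14 and VEA 68 and 70. Gaa, the acid glucosidase, Glb1, the beta-galactosidase, and Naglu, which acts on heparan sulfate, did not pass in any comparison with a vehicle when all libraries were fitted by edgeR. Naglu had 0.75 ± 0.25 at VEA 12.5 (edgeR adjusted p = 0.0559), and it was called by DESeq2 (adjusted p = 0.0354), by limma-voom (0.0469) and when edgeR was fitted to VEA 12.5 and ethanol alone (0.0276). Gaa and Naglu were each called at VEA 3.12 without 1 animal, ethanol 14 for Gaa (edgeR adjusted p = 0.0396) and VEA 57 for Naglu (0.0324).

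Of the 4 lipid-degrading genes, 3 rose after PG 1100, 2 after VEA 12.5 and 1 at each lower VEA dose. Lipa, the acid lipase that frees cholesterol and fatty acids from lipoproteins and surfactant (chromosome 19, 34492318 to 34527474), rose in all 4 of these comparisons. It had 82.7, 114 and 83.9 CPM in PG 1100 lungs and 53.7, 60.98 and 57.7 CPM in PG 826 lungs, against 40.6, 25.7 and 35.4 CPM in saline lungs. The 3 groups did not overlap and stood in the order of dose. Lipa rose by 1.46 ± 0.18 after PG 1100 (edgeR adjusted p = 8.58e-07). After PG 826 the change was 0.76 ± 0.18, with a 95% interval of 0.37 to 1.14, and did not pass (edgeR adjusted p = 0.0816).

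In the VEA series Lipa had 48.5, 49.997 and 46.2 CPM in ethanol lungs, 61.7, 104 and 81.9 CPM at 3.12, 78.4, 87.8 and 54.2 CPM at 6.25, and 107, 113 and 111 CPM at 12.5. The highest dose lay above all other VEA-series lungs with little spread, and the lower doses overlapped each other. The changes were 0.77 ± 0.18, 0.61 ± 0.18 and 1.19 ± 0.18 with rising dose. The call at 3.12 ended without VEA animal 57 (edgeR adjusted p = 0.0747), and that at 6.25 on leaving out ethanol 12, 13 or 14 or VEA 63 or 64 (up to 0.222). Psap, the precursor of the saposins that present lipids to hydrolases, rose after PG 1100 (1.06 ± 0.22) and VEA 12.5 (0.89 ± 0.22). Its PG 1100 levels of 1001, 1167 and 511 CPM overlapped the saline levels of 523, 387 and 378 CPM, and the VEA 12.5 call ended without ethanol animal 12 (edgeR adjusted p = 0.0504). Asah1, acid ceramidase, rose after PG 1100 (0.61 ± 0.17); without animal 28 the change was 0.33 (edgeR adjusted p = 0.351), and the call also ended without saline animal 6 (0.116). Ppt1, a thioesterase that removes palmitate from proteins, did not pass (0.23 ± 0.13 for PG 1100 and 0.31 ± 0.13 for VEA 12.5).

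Of the 6 membrane proteins, 4 rose after PG 1100, 3 after VEA 12.5, and 2 at each lower VEA dose. Cd68, a LAMP-family glycoprotein used as a macrophage marker (chromosome 11, 69664213 to 69666153), had the largest change of the class. PG 1100 lungs had 68.8, 150.2 and 75.6 CPM and PG 826 lungs 43.2, 49.7 and 28.2 CPM, against 30.2, 37.1 and 28.5 CPM in saline lungs. PG 1100 lay above both other groups, while PG 826 overlapped saline. Cd68 rose by 1.62 ± 0.22 after PG 1100 (edgeR adjusted p = 1.32e-05), and its PG 826 estimate was 0.34 ± 0.22. In ethanol lungs it had 33.8, 33.4 and 32.4 CPM, at VEA 3.12 91.7, 79.1 and 109 CPM, at 6.25 81.2, 78.1 and 65.0 CPM and at 12.5 101, 100.4 and 103 CPM. All VEA lungs were above the ethanol lungs, and the changes were 1.49 ± 0.22, 1.17 ± 0.22 and 1.61 ± 0.22 with rising dose.

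Cd63, a tetraspanin of late endosomes and secretory granules, rose in the same 4 comparisons, by 1.04 ± 0.14 after PG 1100 and by 0.67 ± 0.14, 0.70 ± 0.14 and 0.86 ± 0.14 with rising VEA dose. Scarb2, the receptor that carries glucocerebrosidase to lysosomes, rose after PG 1100 (0.80 ± 0.16) and VEA 12.5 (0.53 ± 0.16). The VEA 12.5 call for Scarb2 ended without ethanol animal 12 or 14 or VEA animal 68 or 70 (edgeR adjusted p 0.0541 to 0.174). Lamp2, one of the main proteins of the lysosomal membrane, rose after PG 1100 (0.58 ± 0.12, edgeR adjusted p = 0.00218; 0.106 when PG 1100 and saline were fitted by themselves) and had an estimate of 0.25 ± 0.12 at VEA 12.5. Lamp1, the other main membrane protein, had estimates of 0.22 ± 0.13 for PG 1100 and 0.31 ± 0.13 for VEA 12.5 and did not pass in any comparison, except at VEA 12.5 when VEA 12.5 and ethanol were fitted alone (edgeR adjusted p = 0.0205). Mcoln1, the calcium channel mucolipin 1, was the least precise gene of the list, with 1.34 to 8.31 CPM over the 21 lungs and SEs of 0.53 to 0.55 against the vehicles. Differences of this gene were not detectable at that depth.

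Grn encodes progranulin, a secreted protein that is cut to granulins in lysosomes (chromosome 11, 102430315 to 102437048). In ethanol lungs it had 125, 133 and 122 CPM, at VEA 3.12 191, 186 and 221 CPM, at 6.25 185, 173 and 146 CPM and at 12.5 274, 269 and 259 CPM. All VEA lungs were above the ethanol lungs, and the 12.5 lungs were above all others. Grn rose by 1.08 ± 0.16 at 12.5 (edgeR adjusted p = 1.51e-05) and by 0.65 ± 0.16 at 3.12, a call that ended without ethanol animal 14 or VEA animal 59 (edgeR adjusted p = 0.0502 and 0.0746, in that order). In PG 1100 lungs it had 206, 161 and 121 CPM, against 153, 84.4 and 113 CPM in saline lungs, which overlapped (0.48 ± 0.16, edgeR adjusted p = 0.0664). Grn was called for PG 1100 without animal 30 (edgeR adjusted p = 0.00989), without saline animal 6 (0.00398) or without the filter on low counts (0.0258).

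Of the 4 proton pump subunits, none passed after PG 1100 and 2 rose after VEA 12.5. Atp6v0d1, of the membrane sector (chromosome 8, 105524465 to 105566047), had 41.8, 38.4 and 30.6 CPM in ethanol lungs, 66.5, 56.9 and 47.0 CPM at VEA 3.12, 44.2, 50.8 and 62.4 CPM at 6.25 and 61.0, 51.0 and 60.8 CPM at 12.5. The treated lungs were above the ethanol lungs with overlap among the doses, and the gene rose at 3.12 (0.62 ± 0.16) and 12.5 (0.64 ± 0.16, edgeR adjusted p = 0.00738). Both calls ended without ethanol animal 14, and that at 3.12 also without VEA animal 56 (edgeR adjusted p between 0.0660 and 0.140). PG 1100 lungs had 43.5, 50.1 and 44.9 CPM against 34.5, 32.4 and 37.4 CPM in saline lungs, which did not overlap, but the change of 0.41 ± 0.16 did not pass (edgeR adjusted p = 0.132). Atp6v1b2, of the ATP-splitting sector, rose at VEA 12.5 (0.45 ± 0.14, edgeR adjusted p = 0.0278), a call that ended without ethanol animal 13 or 14 or VEA animal 68 or 70 (0.0504 to 0.158). Atp6v1a and Atp6v0a1 had estimates between -0.22 and 0.51 against the vehicles, and none passed, although Atp6v0a1 did at VEA 3.12 without ethanol animal 14 (edgeR adjusted p = 0.0410).

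Tfeb, the transcription factor of the list (chromosome 17, 47737030 to 47792419), had low counts, 45 to 169 per library. Its levels were 6.70, 6.16 and 6.80 CPM in ethanol lungs, 4.76, 8.71 and 8.16 CPM at VEA 3.12, 6.48, 7.23 and 8.31 CPM at 6.25, and 12.8, 13.7 and 10.2 CPM at 12.5. The 12.5 lungs were above all others of the series. The change at 12.5 was 0.90 ± 0.30 (edgeR adjusted p = 0.0483), and the call ended under 8 of 13 alternatives, among them leaving out any 1 of the 6 animals compared (0.0604 to 0.163). PG 1100 lungs had 7.92, 7.09 and 5.01 CPM against 9.96, 5.84 and 8.27 CPM in saline lungs, which overlapped (-0.27 ± 0.30, not passed).

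**Figure D3:**
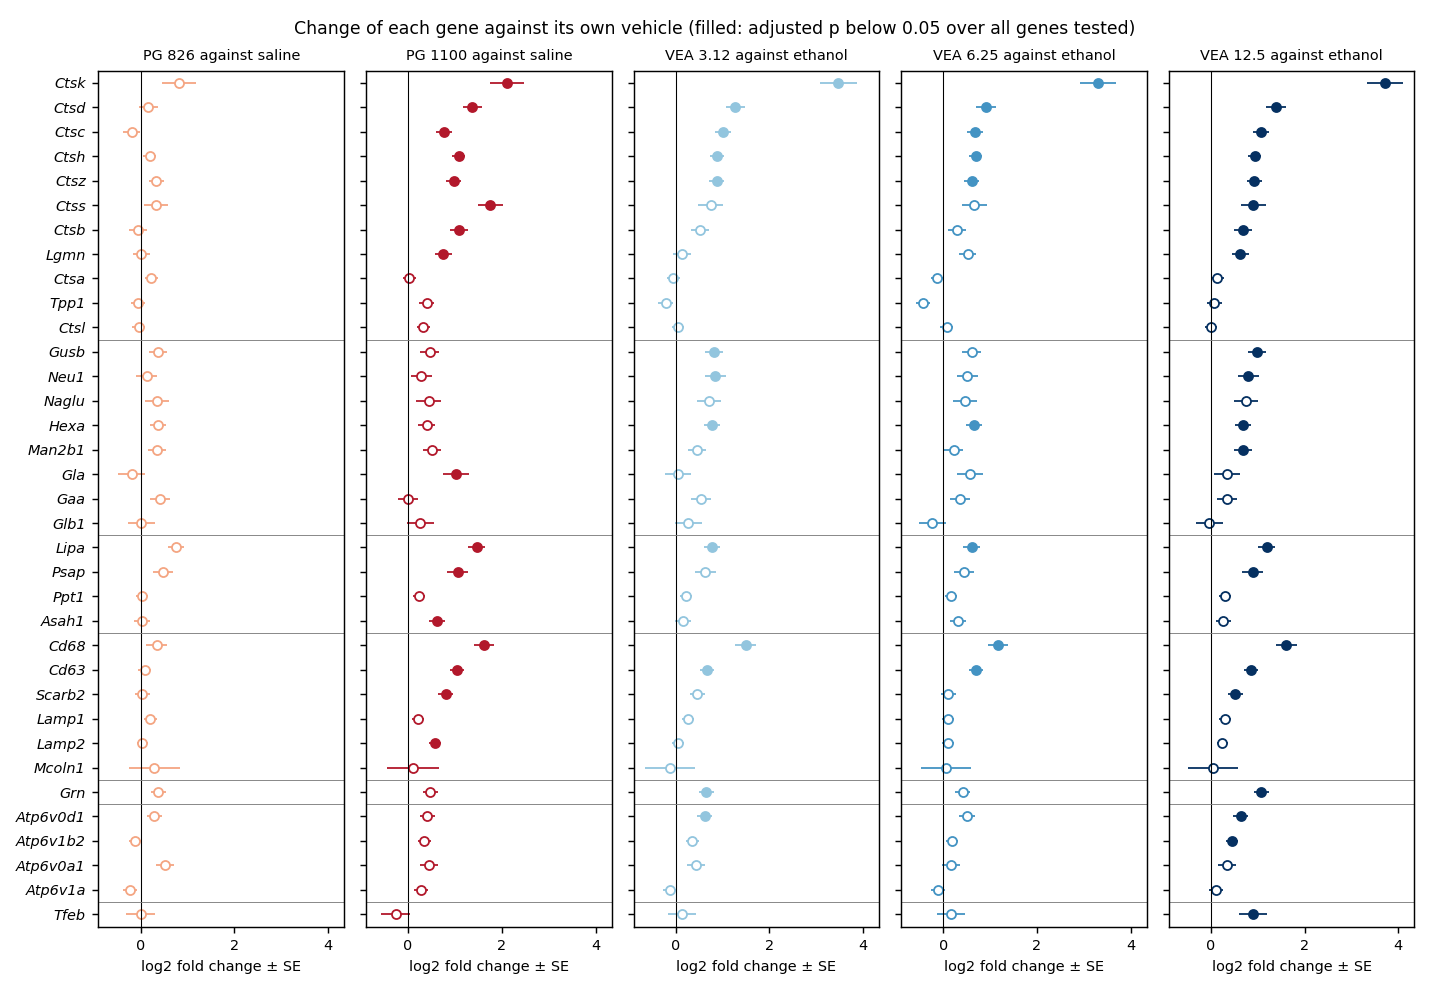
Log2 fold change ± SE of the 35 genes (rows, grouped by class) in the 5 comparisons of an agent with its vehicle, 1 panel each, with filled points where the edgeR adjusted p over all genes was below 0.05. PG 826 has 0 filled points, PG 1100 has 16 and VEA 3.12, 6.25 and 12.5 have 13, 9 and 21, all to the right of 0.

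PG 1100 was also compared directly with PG 826, to ask how the doses differed. Of the 35 genes, 17 were higher at 1100 and none lower, where 2.85% of all genes were higher and 2.71% lower. They were 8 of 11 proteases, 2 of 4 lipid genes (Lipa and Asah1), 4 of 6 membrane proteins, 2 of 4 pump subunits (Atp6v1a and Atp6v1b2) and Gla. The largest were Ctss (1.43 ± 0.27), Ctsk (1.29 ± 0.35, with overlapping groups), Cd68 (1.28 ± 0.22) and Ctsd (1.21 ± 0.21). These sizes and their order rested on PG 1100 animal 28: without it the differences were 0.91 for Ctss, 0.84 for Cd68 and 0.69 for Ctsd, which still passed, and the highest was 1.07, for Gla, which did not pass. The count was 7 without animal 28, and 10 without PG 826 animal 25. Without animal 28 the Ctsk difference was 0.69 (edgeR adjusted p = 0.211) and the Lipa difference 0.54 (0.168); Asah1, Atp6v1a, Atp6v1b2, Ctsz, Gla, Lamp2, Lgmn and Scarb2 did not pass either (0.0732 to 0.647). Leaving out any 1 PG 826 animal also ended the calls of Asah1, Atp6v1a, Atp6v1b2 and Ctsk, leaving out animal 22 or 25 that of Lipa, and leaving out animal 25 those of Ctsz and Lgmn. When only the 6 libraries of these groups were fitted, 7 genes passed, and Cd68, Ctsd and Ctss did not (edgeR adjusted p = 0.0746, 0.0704 and 0.0577). The genes that passed under every alternative were Cd63, Ctsb, Ctsc and Ctsh.

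PG 826 had no gene of the list past the test by edgeR, and 7 had an unadjusted p below 0.05, all with positive estimates: Ctsk, Ctsz, Hexa, Lipa, Psap, Grn and Atp6v0a1. DESeq2 called 1, Lipa, and limma-voom 0. Of all genes, 9.47% had an unadjusted p below 0.05. The largest estimates were 0.82 ± 0.37 for Ctsk and 0.76 ± 0.18 for Lipa.

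Within the VEA lungs alone, a slope over the 3 doses was fitted to ask whether the genes moved with dose. By edgeR 0 of the 35 genes passed, as did 0% of all genes, and DESeq2 and limma-voom called 0 of the 35. An unadjusted p below 0.05 was found for 5 of the 35 and for 6.23% of all genes, and the 5 had positive slopes: Grn, Lgmn, Lipa, Tfeb and Tpp1. In log2 per unit of dose, the slope was 0.09 ± 0.03 for Tfeb (edgeR adjusted p = 0.557), 0.05 ± 0.02 for Lipa (0.557) and 0.05 ± 0.02 for Grn (0.456). When the libraries of these groups were fitted by themselves, Grn passed (edgeR adjusted p = 0.0389). For Ctsk the slope was 0.03 ± 0.04.

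Ethanol against saline compared the vehicles. As with the slope, 0 of the 35 genes and 0% of all genes passed by edgeR. An unadjusted p below 0.05 was found for 1, Lipa, and for 6.06% of all genes. DESeq2 and limma-voom called 0 of the 35. The median over the list was 0.03. Lipa had an estimate of 0.51 ± 0.18, with 48.5, 49.997 and 46.2 CPM in ethanol lungs against 40.6, 25.7 and 35.4 CPM in saline lungs, which did not overlap (edgeR adjusted p = 0.647).

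The effects of the highest doses, each against its own vehicle, come from separate animals, though the doses are not matched. Of the 16 genes that rose after PG 1100 and the 21 that rose after VEA 12.5, 13 were shared, which is 81.2% of the PG list and 61.9% of the VEA list. The 3 called for PG 1100 and not for VEA 12.5 were Gla, Asah1 and Lamp2. The 8 called for VEA 12.5 and not for PG 1100 were Gusb, Hexa, Man2b1, Neu1, Grn, Atp6v0d1, Atp6v1b2 and Tfeb. When the difference of the effects was tested, 0 of the 35 genes passed by edgeR, where 0.190% of all genes did, and DESeq2 and limma-voom also called 0. None of these 11 genes is therefore shown to respond to 1 agent and not the other. In this test 4 of the 35 genes, and 7.89% of all genes, had an unadjusted p below 0.05. They were Ctsk (1.60 ± 0.51), Tfeb (1.17 ± 0.43), Grn (0.60 ± 0.23) and Ctss (-0.85 ± 0.37); a positive value means a larger effect of VEA. Without PG 1100 animal 28 the Ctsk difference was 2.21 and passed (edgeR adjusted p = 0.00492). The PG 1100 changes of Ctss, Cd68 and Ctsd were then 1.24, 1.18 and 0.86, in place of 1.76, 1.62 and 1.37. The median difference over the 35 genes was 0.18 without animal 28 and -0.05 with it. Across the 35 genes the paired effects had Pearson's r of 0.716 and Spearman's rho of 0.672, against 0.390 and 0.437 across all genes, given as a description with no test, since genes of the same libraries are not independent.

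**Figure D4:**
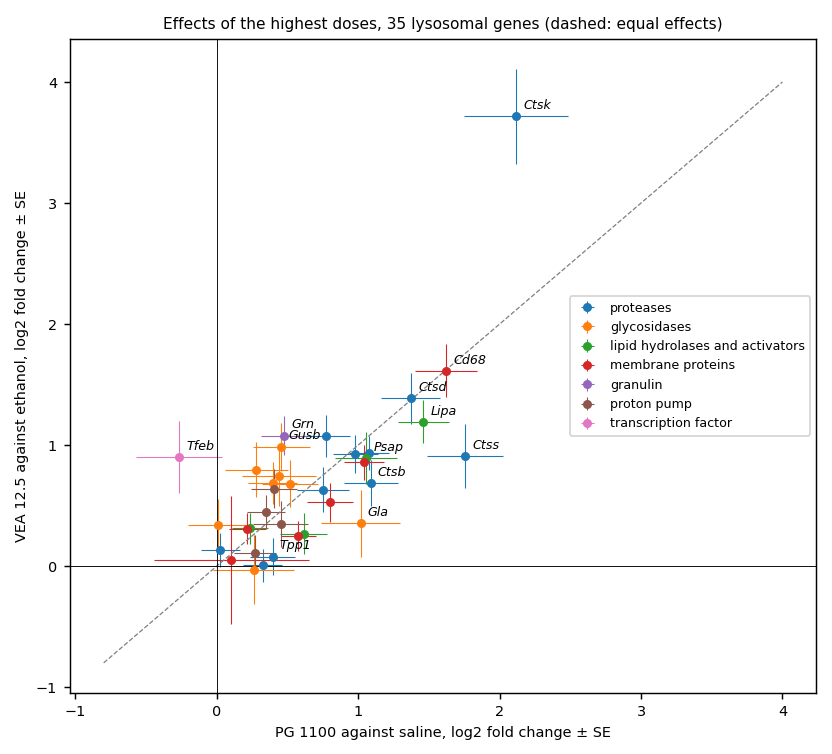
Log2 fold change ± SE of each of the 35 genes after PG 1100 against saline (horizontal) and after VEA 12.5 against ethanol (vertical), coloured by class, with a dashed line of equal effects. Ctsk (2.11 and 3.72) lies farthest above the line and Ctss (1.76 and 0.91) farthest below it, while Cd68 and Ctsd lie on it. The plotted values include PG 1100 animal 28, without which the horizontal values of Ctss, Cd68 and Ctsd were 1.24, 1.18 and 0.86.

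A wider list of 72 other lysosomal genes was written from general knowledge, also with earlier results of these data known. It was described in the same fit, and 71 were tested. After PG 1100, 15 rose and 1, the sulfatase Ids, fell (-0.54 ± 0.14), and after VEA 12.5, 18 rose and 0 fell. At VEA 6.25, 7 rose and 1, the membrane gene Laptm4b, fell (-0.60 ± 0.16), and at VEA 3.12, 12 rose. After PG 826 0 of the 71 passed by edgeR, and 15 had an unadjusted p below 0.05, as had 9.47% of all genes. Over all genes tested, 4.09% rose and 3.23% fell after PG 1100, and 5.48% rose and 4.23% fell after VEA 12.5. At VEA 6.25 3.51% rose and 2.25% fell, and at VEA 3.12 3.42% rose and 2.09% fell. For the 71 genes the median log2 fold change was 0.35 for PG 1100 and 0.25 for VEA 12.5. These lay below the 0.48 and 0.68 of the 35 genes, with no test of that difference.

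The largest rises of the wider list were in Gpnmb, a glycoprotein of lysosomes and melanosomes, which averaged 54.0 ± 42.4 CPM in PG 1100 lungs against 6.56 ± 2.74 CPM in saline lungs (SD, n = 3 each; 3.02 ± 0.49). It averaged 94.1 ± 9.86 CPM in VEA 12.5 lungs against 8.59 ± 1.98 CPM in ethanol lungs (3.45 ± 0.48), and rose at VEA 6.25 and 3.12 by 2.78 ± 0.48 and 3.24 ± 0.48. Acp5, the tartrate-resistant phosphatase of osteoclasts and macrophages, rose after PG 1100 (1.90 ± 0.30) and VEA 12.5 (1.00 ± 0.29). Among pump subunits, Atp6v0d2, a form of the d subunit found in osteoclasts and macrophages, rose after PG 1100 (1.37 ± 0.22) and at VEA 3.12, 6.25 and 12.5 (1.73 ± 0.22, 1.30 ± 0.22 and 1.68 ± 0.22). Tcirg1, the a3 subunit, rose after PG 1100 (1.13 ± 0.26) and VEA 12.5 (1.04 ± 0.26). Tfec, a relative of TFEB, rose after PG 1100 (0.98 ± 0.29) and at VEA 3.12, 6.25 and 12.5 (1.35 ± 0.29, 1.45 ± 0.29 and 1.53 ± 0.29), while Tfe3 did not pass at VEA 12.5 (0.46 ± 0.28).

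Markers of macrophages moved in the same comparisons. Of 26 macrophage and myeloid markers, 11 rose and 1, Krt79, fell after PG 1100, 15 rose after VEA 12.5, 9 at each of VEA 6.25 and 3.12, and 1 after PG 826. Over all genes tested, 4.09% rose and 3.23% fell after PG 1100. The shares that rose were 5.48% at VEA 12.5, 3.51% at 6.25, 3.42% at 3.12 and 0.0951% after PG 826. Marker lists too were chosen with earlier results of these data known. The 10 markers of recruited macrophages summed to 1034 to 1130 CPM in PG 1100 lungs and 596 to 774 CPM in PG 826 lungs, against 560 to 640 CPM in saline lungs. They summed to 664 to 813 CPM in ethanol lungs, 793 to 1113 CPM at VEA 3.12, 883 to 1264 CPM at 6.25 and 1110 to 1481 CPM at 12.5. The 10 alveolar macrophage markers summed to 1511 to 1991 CPM after PG 1100 and 1403 to 1867 CPM after PG 826, against 821 to 1480 CPM after saline, and to 1087 to 1322 CPM after ethanol, 1610 to 1741 CPM at VEA 3.12, 1561 to 1840 CPM at 6.25 and 1499 to 1753 CPM at 12.5. The 1 marker that rose after PG 826 was Chil3, of the alveolar list (0.93 ± 0.16). The other alveolar markers had PG 826 estimates between -0.64 ± 0.74 (Fabp4) and 1.69 ± 0.97 (Siglec1), and none passed. No marker of either list was at 0 in a whole group. Their part in the lysosomal results was not tested.

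Single macrophage genes moved by different amounts. Msr1, a scavenger receptor, rose by 3.92 ± 0.55 after PG 1100 and 4.22 ± 0.55 after VEA 12.5, and C1qa, of complement C1q, by 1.53 ± 0.17 and 1.92 ± 0.17. Csf1r, the receptor that macrophages need to survive, averaged 84.0 ± 5.89 CPM in PG 1100 lungs and 83.1 ± 12.2 CPM in saline lungs (0.02 ± 0.14, not passed), against a rise at VEA 12.5 (0.57 ± 0.14). Lyz2, the lysozyme of macrophages, which mouse type II cells also make, rose after PG 1100 (0.89 ± 0.22) and had 0.25 ± 0.22 at VEA 12.5, not passed.

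Of the 8 type II cell markers, 4 rose after PG 1100, 3 after VEA 12.5, 1 at VEA 6.25 and 2 at VEA 3.12. The shares of all genes that rose were 4.09%, 5.48%, 3.51% and 3.42%, in that order. Lamp3 is in both the type II list and the wider lysosomal list, so the results of these lists are not fully separate. The 8 markers summed to 34202, 52972 and 46903 CPM in PG 1100 lungs 27, 28 and 30, against 26889 to 37109.9 CPM in saline lungs. PG 826 lungs had 27224 to 29601 CPM, within the saline range. The sums were 25616 to 30257 CPM in ethanol lungs, 26337 to 33702 CPM at VEA 3.12, 25208 to 26313 CPM at 6.25 and 26813 to 29244 CPM at 12.5. Every VEA dose thus overlapped ethanol. Animal 28, highest for most lysosomal genes, also had the highest sum of the 6 pan-macrophage and myeloid markers (5165 CPM, against 2722 and 2900 CPM in animals 27 and 30). These 6 include Lyz2, which type II cells also make, and the type II sum of animal 28 was the highest too. Its recruited (1082 CPM) and alveolar macrophage sums (1796 CPM) each lay between those of the other PG 1100 animals. Its sum of the 6 giant cell and osteoclast markers was the highest of the group (72.0 CPM, against 46.5 and 36.6 CPM in animals 27 and 30). What set animal 28 apart was not tested. Of the 6 markers of giant cells and osteoclasts, Ocstamp, Calcr and Oscar had too few counts to be tested, and Dcstamp had 212 counts over the 3 VEA 12.5 lungs and 0 over the ethanol lungs. Acp5 is in both this list and the wider lysosomal list, so the sums below and its rise given above are not separate results. Sums of this list were 36.6 to 72.0 CPM after PG 1100 and 32.3 to 41.0 CPM after PG 826. Saline lungs had 24.4 to 27.4 CPM, and neither PG group overlapped them. The sums were 25.1 to 41.3 CPM in ethanol lungs, 37.1 to 51.7 CPM at VEA 3.12, 38.3 to 48.1 CPM at 6.25 and 46.6 to 67.7 CPM at 12.5, and only the highest dose did not overlap ethanol.

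Markers of other lung cells moved as well. Of the 3 club cell markers, 2 fell after PG 1100, 3 at VEA 12.5 and 2 at each lower VEA dose, and Scgb1a1 fell in all 4 of these comparisons (-1.24 ± 0.15 after PG 1100 and -1.14 ± 0.15 at VEA 12.5). The shares of all genes that fell were 3.23% after PG 1100, 4.23% at VEA 12.5, 2.25% at 6.25 and 2.09% at 3.12. Club cell sums were 22216 to 31346 CPM after PG 1100 and 40937 to 44171 CPM after PG 826, against 51321 to 67724 CPM after saline. They were 49301 to 67624 CPM in ethanol lungs, 28297 to 33068 CPM at VEA 3.12, 29326 to 34826 CPM at 6.25 and 26455 to 28254 CPM at 12.5, so every treated group lay below its vehicle. Endothelial markers fell, 5 of 5 after PG 1100 and 3 of 5 at each VEA dose, and erythroid markers fell, 3 of 3 after PG 1100 and VEA 12.5.

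Of the 5 fibroblast markers, 3, the collagens Col1a1, Col1a2 and Col3a1, rose after PG 1100 and at VEA 6.25 and 12.5, and Col1a1 also rose after PG 826 (0.93 ± 0.20, edgeR adjusted p = 0.0497). Pdgfra fell at VEA 6.25 and 12.5 and Dcn at 12.5, and none passed at 3.12 by edgeR, where 5 had an unadjusted p below 0.05. At 3.12, 2792 of the 14727 genes tested had such a p. Shares of all genes that rose were 4.09% after PG 1100, 0.0951% after PG 826, and 3.42%, 3.51% and 5.48% at VEA 3.12, 6.25 and 12.5. At VEA 6.25 and 12.5, 2.25% and 4.23% of all genes fell. Fibroblast sums were 2112 to 2679.99 CPM after PG 1100 against 1076 to 1383 CPM after saline, and 1645 to 2077 CPM at VEA 12.5 against 1224 to 1499 CPM after ethanol. Of the 4 dendritic cell markers, 1 rose after PG 1100, 3 at VEA 12.5, 1 at 6.25 and 2 at 3.12, and their sums were 46.7 to 69.6 CPM after PG 1100 against 29.2 to 34.7 CPM after saline, and 63.6 to 79.0 CPM at VEA 12.5 against 28.7 to 38.4 CPM after ethanol. The part of all these cells in the lysosomal results was not tested.

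**Figure D5:**
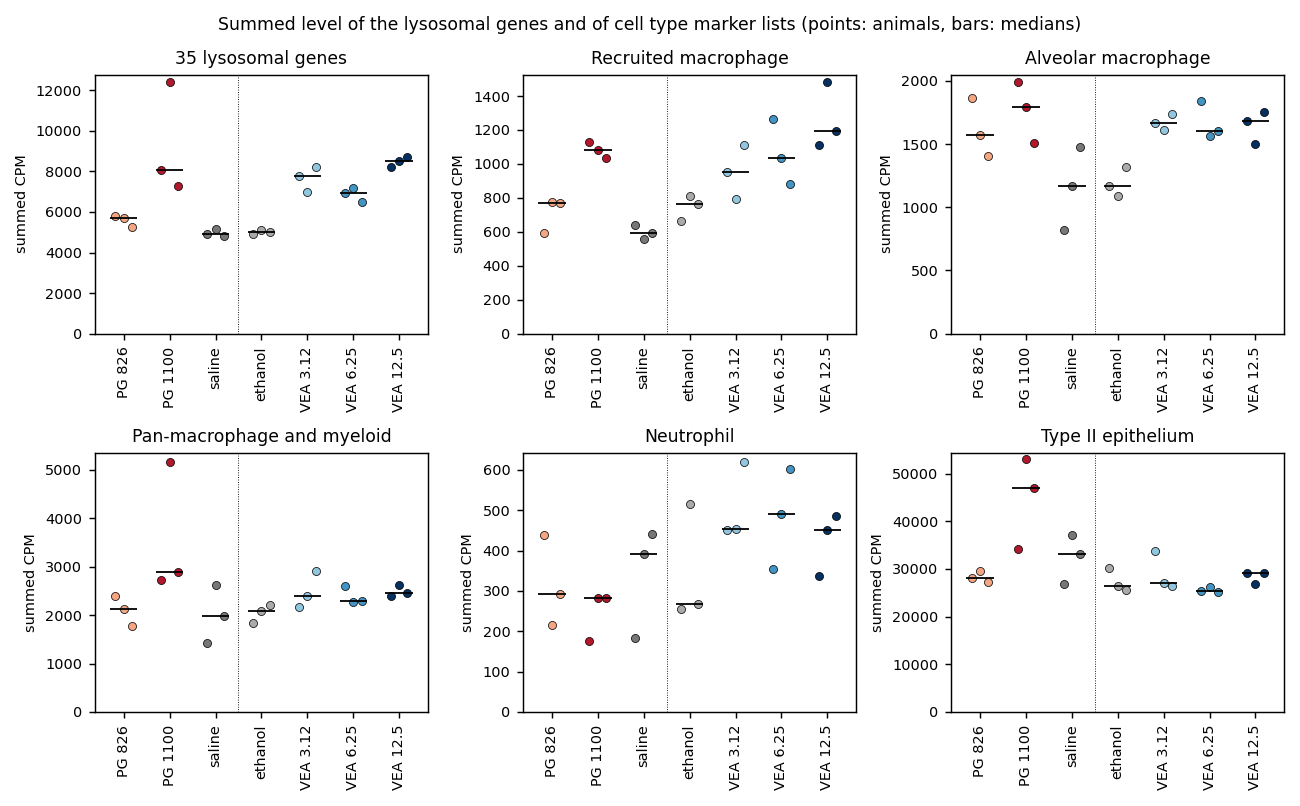
Summed CPM per lung of the 35 lysosomal genes and of 5 lists of cell type markers, with 1 point per animal and a bar at the median of each group, on axes that start at 0. The lysosomal sums of all treated groups lie above their vehicle, the recruited macrophage sums of PG 1100 lie above saline without overlap, and the neutrophil sums of every treated group overlap those of its vehicle.

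The calls were set beside the promoter windows shown above. Of the 12 genes with the core, 3 rose after PG 1100 and 3 after VEA 12.5, with median log2 fold changes of 0.30 and 0.32. Of the 19 genes with a window and no core, 10 and 15 rose, with medians of 0.58 and 0.89. Over all genes tested, 4.09% rose after PG 1100 and 5.48% after VEA 12.5. Ctsd was the gene with a core that rose in all 4 of the comparisons PG 1100 and VEA 3.12, 6.25 and 12.5 against their vehicles, and Lamp1, with 4 copies, was called in none of them. The 4 genes without a window, Ctsb, Ctsh, Asah1 and Atp6v1b2, are in neither set, and each was called in at least 1 of these 4 comparisons. The difference between genes with and without the core was not tested. A missing core says only that these letters are not in the window.

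Exons of 10 of the 35 genes overlap an exon of another gene in GENCODE M21: Ctsa, Ctsb, Ctsd, Ctsl, Ctsz, Glb1, Hexa, Ppt1, Lamp1 and Grn. Whether the counting used strand is not given in the sources used here, so counts of these genes may hold reads of their neighbours. For Ctsd the overlapping model is Gm49369 on the same strand, and for Grn it is Fam171a2 on the other strand.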

How the data were processed

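Lung RNA of 21 mice was sequenced from 500 ng of total RNA with a Lexogen Quant-Seq kit, per the labels' protocols. The submitters' processing notes name Bowtie2, bedtools and the mm10 build without versions, and the annotation and any strand setting are not given in the sources used here. The authors deposited whole-number counts per gene symbol, 1 file per library, with 23282 rows, of which 44 repeated another row's symbol and were summed into it. 

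All tests used the deposited counts. Genes were filtered by group with filterByExpr, TMM gave the library scaling, and all 21 libraries entered 1 quasi-likelihood fit in which each group had its own mean (edgeR 4.0.16, robust, R 4.3.3, 14 residual degrees of freedom, biological coefficient of variation 23.8%). Each of 9 comparisons had its p-values adjusted by Benjamini-Hochberg over all 14727 tested genes. The SE is the absolute log2 fold change over the square root of F. For each gene the spread between animals was estimated over all 7 groups together, so an SE is not that of the compared groups alone. Between animals of a group, the chi-square of counts per degree of freedom was 8.43 to 43.0, so no library was a copy of another of its group. Libraries of different groups were not compared in this way. Alternatives were RLE factors, DESeq2 1.42.0, limma-voom 3.58.1, no filter, only the groups compared, dose ranks, leaving out each animal, leaving out the 3 libraries with the fewest genes (saline 8, ethanol 13, VEA 65), and leaving out Rn45s and haemoglobin. The scripts were tested on simulated counts.

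The 35 genes, the wider list and the markers were chosen with earlier results of these data known. Values in every lung are given for the 8 genes with the largest called change against a vehicle at 5 CPM or more and for the largest of each class. Up to 5 called genes each way were named from the wider list, and up to 4 from the markers; a few further values that bear on these were added after their values were seen. Ly6g and Trac, 2 of the markers, are not used here. Gene positions are from GENCODE M21 (GRCm38), and promoter windows from RefSeq (GRCm38.p6).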

Additional observations from a re-analysis of the deposited data

Results flagged for a closer look

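Atp6v1a, a subunit of the ATP-splitting sector of the proton pump, was picked out because its small changes at the higher VEA doses ran in opposite directions. At VEA 12.5 all 3 lungs were above all ethanol lungs (0.11 ± 0.15), and at VEA 6.25 all 3 were below them (-0.11 ± 0.15). Neither change passed the test (edgeR adjusted p = 0.727 and 0.756). The difference between these doses was not tested by itself, and both share the ethanol animals, whose levels of this gene differed little (233 to 239 CPM). The slope over the 3 doses was 0.03 ± 0.02 and did not pass.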

How the results depend on the processing

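The 76 called values of single genes kept their direction under all 988 alternative values, and 124 of these no longer passed. Genes called under every alternative run were 11 of 16 for PG 1100 against saline, 10 of 21 for VEA 12.5, 4 of 9 for VEA 6.25, 8 of 13 for VEA 3.12 and 4 of 17 for PG 1100 against PG 826. Where the number of the 35 genes called moved by over 1.5 times, the value is given, and the cause was not tested. Fitting only the groups compared gave 7 in place of 17 for PG 1100 against PG 826, and 1 in place of 0 for the VEA slope (Grn). The same fit ended the PG 1100 calls of Asah1, Ctsc, Gla, Lamp2 and Lgmn against saline. For PG 826 against saline, DESeq2 gave 1 (Lipa) and no filter gave 2 (Lipa and Ctsk) in place of 0. Without the filter, 2 passed for the VEA 12.5 effect minus the PG 1100 effect (Ctsk up and Ctss down) in place of 0. Smaller moves, over the alternatives that leave out no single animal, were 11 to 17 calls for PG 1100 against saline (16 in the reported fit), 16 to 23 for VEA 12.5 (21), 6 to 12 for VEA 6.25 (9, with Tpp1 lower as well in the fit of these groups alone) and 12 to 16 for VEA 3.12 (13). Genes called under at least 1 alternative but not in the fit of all libraries were Grn, Hexa, Man2b1 and Tpp1 for PG 1100 against saline, Lamp1 and Naglu for VEA 12.5, Atp6v0d1, Ctss, Grn, Gusb, Lgmn, Neu1, Psap and Tpp1 for VEA 6.25, Atp6v0a1, Ctsb, Ctss, Gaa, Naglu and Psap for VEA 3.12, and Ctsl, Psap and Tpp1 for PG 1100 against PG 826.

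Leaving out 1 animal at a time gave 12 to 19 calls for PG 1100 against saline, 7 to 19 for PG 1100 against PG 826 (lowest without PG 1100 animal 28, 10 without PG 826 animal 25), and 0 to 1 for PG 826 (1, Lipa, without saline animal 6). It gave 12 to 18 for VEA 12.5 (12 without ethanol animal 14, 13 without VEA animal 68), 5 to 10 for VEA 6.25 (lowest without VEA animal 64) and 11 to 13 for VEA 3.12. For the effect difference it gave 0 to 1 (1, Ctsk, without PG 1100 animal 28), and 0 for the vehicles and the slope. A group left with 2 animals is assumed to vary like the others. No paired analysis was possible because animal numbers are not shared between groups. With 3 animals a group, a missed call does not show that a gene did not change.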
